A study of Mus musculus with 32 samples.

Results

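The genes described here are 9 factors that muscle is known to make for its nerve or its synapse: Gdnf, Bdnf, Ntf3, Ntf5, Fgfbp1, Fgf7, Fgf10, Sirpa and Igf1. They were chosen by gene name, and all 9 are among the 24952 genes of the count and TPM tables. Expression was filtered at 1 CPM (counts scaled to a common library size), to be reached in no fewer than 8 libraries; 8 of the 9 passed, among 13990 genes in all. Fgfbp1 did not pass and was not tested.

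RNA was measured in 32 libraries from the tibialis anterior (TA) muscle of male, wild-type C57BL/6JRj mice. Synaptic regions, marked by α-bungarotoxin, which binds the muscle acetylcholine receptor, were cut out by laser capture (NMJ), as were regions away from the synapse (xNMJ). Both were taken at 10 and at 30 months of age (10m and 30m), which gives 4 groups of 8 libraries. All mice were caged singly and ate AIN93M diet, for 2 to 3 months in the 10m groups and for 16 months in the 30m groups, so that age and time on the diet cannot be told apart. Each library pooled many captured regions, and the labels do not say whether libraries of a group, or NMJ and xNMJ libraries with the same number, came from separate mice. The p values therefore measure the spread between these libraries. Library totals ran from 4026648 to 16516788 counts, with group medians of 6062117 and 6790011 in xNMJ and of 9605869 and 9825357 in NMJ libraries (10 and 30 months). A floor of 3 counts was worth 0.182 to 0.745 CPM by library totals alone, and this covers counting error only. The CPM values of genes given below are also scaled by TMM (trimmed mean of M values) factors. On that scale 3 counts can lie above this range, as for Fgf7 in 10m xNMJ replicate 1 (0.933 CPM).

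A muscle fiber sends signals back to its motor neuron, and this retrograde supply is thought to keep the nerve terminal in place. GDNF acts through the co-receptor GFRα1 with either RET or NCAM. The neurotrophins BDNF, NT-3 (Ntf3) and NT-4 (Ntf5) act through receptors of the TRK family, which sit mainly on the nerve. FGF7, FGF10 and the shed ectodomain of SIRPα can organize presynaptic terminals, FGFBP1 releases FGFs that are held in the matrix, and IGF-1 promotes the growth of fibers and the sprouting of nerve terminals. In captured regions, fewer cells of a type and less RNA per cell cannot be told apart.

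The label of the regions was checked on genes of synaptic muscle nuclei (Chrne, Chrnd, Musk, Colq, Ache and Etv5). Their summed TPM ran from 485.0 to 1035 in the 10m NMJ libraries and from 746.7 to 1036 in the 30m NMJ libraries. It ran from 1.38 to 8.17 in the 10m xNMJ libraries. In the 30m xNMJ libraries it lay between 1.51 and 10.4, except for replicate 5 at 123.2. That library holds synaptic RNA despite its xNMJ label, for example 1062 counts of Chrne, the adult ε-subunit of the acetylcholine receptor. A second library stood apart by its mean insert size, 52 bases in 10m NMJ replicate 8, where the other NMJ libraries had 101 to 131. The fits were repeated without either library, and where this changed a call given here, both results are stated.

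Gdnf, a survival factor for motor neurons, was the member most clearly tied to the synapse. The gene (ENSMUSG00000022144) lies at chr15:7810846-7837575 of GRCm38 on the plus strand. RefSeq gives it 2 starts, one before this Ensembl model and one inside it, and 250 bases before each start are shown because Gdnf rose at the synapse together with the acetylcholine receptor genes. The promoter of Chrne is shown for comparison. Capitals mark an E-box (CANNTG, the motif of MyoD family factors) or an N-box (CCGGAA, a motif of ETS factors). In Chrne, the last 22 of 250 bases before the start lie in an annotated exon and were left out.
Gdnf promoter 1, chr15:7809798-7810047, plus strand: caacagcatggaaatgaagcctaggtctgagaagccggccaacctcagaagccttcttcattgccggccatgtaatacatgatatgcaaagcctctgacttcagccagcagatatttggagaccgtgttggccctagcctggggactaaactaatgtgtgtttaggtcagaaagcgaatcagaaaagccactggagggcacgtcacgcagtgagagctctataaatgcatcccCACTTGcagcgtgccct
Gdnf promoter 2, chr15:7813477-7813726, plus strand: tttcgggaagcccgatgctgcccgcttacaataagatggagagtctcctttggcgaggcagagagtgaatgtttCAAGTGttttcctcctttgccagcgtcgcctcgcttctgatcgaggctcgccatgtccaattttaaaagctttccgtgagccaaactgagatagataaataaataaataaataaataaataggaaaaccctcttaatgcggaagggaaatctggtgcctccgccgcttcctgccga
Chrne promoter, chr11:70619217-70619444, minus strand: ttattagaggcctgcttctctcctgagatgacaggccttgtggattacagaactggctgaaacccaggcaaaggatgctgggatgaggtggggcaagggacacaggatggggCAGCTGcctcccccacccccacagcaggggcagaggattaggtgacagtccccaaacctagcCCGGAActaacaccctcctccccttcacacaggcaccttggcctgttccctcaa
Each Gdnf promoter holds 1 E-box, at -17 to -12 and at -176 to -171 from its start, and no N-box. In Chrne the N-box is at -76 to -71 and the E-box at -138 to -133. RefSeq (GRCm38.p6) holds promoters of 7 of the 9 members, 15 in all. Of these promoters 7 are of Bdnf alone, so that they do not stand for separate members. All 250 bases before the Igf1 start and 166 of those before 1 Ntf3 start lie in annotated exons, and these were searched too. In the 300 bases from 250 before to 50 after the start, searched on both strands, 14 of these 15 held an E-box and 0 held an N-box. Of all 32851 promoters of that length, 72.3% held an E-box and 14.9% an N-box. The cAMP response element TGACGTCA was in 0 of the 15 and in 1.79% of all, and its short form TGACG, which the full element contains, was in 2 of the 15 (Gdnf promoter 1, at -50 to -46, and a Bdnf promoter) and in 20.8% of all. A match describes the letters and not binding.

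At 10 months, Gdnf was at 0 to 0.622 CPM in the xNMJ libraries (median 0), with 2, 1, 0, 0, 0, 0, 0 and 0 counts. In the 10m NMJ libraries it was at 0.908, 5.27 and 17.2 CPM (lowest, median and highest). Every NMJ library lay above every xNMJ library. The summed counts, 737 against 3, give a ratio of 103 after scaling by library totals and TMM factors, with an interval of 35.1 to 500 that covers counting error only, not the spread between libraries. At 30 months the xNMJ libraries had 0, 0.120 and 2.12 CPM, the highest being replicate 5, the library with synaptic RNA. The 30m NMJ libraries had 4.18, 8.69 and 19.8 CPM. The groups did not overlap at 30 months either. Gdnf rose at the NMJ by 6.23 ± 0.98 (log2 fold change ± SE, adjusted p = 2.7e-05, edgeR) at 10 months and by 4.44 ± 0.82 (adjusted p = 0.00032) at 30 months. Without 30m xNMJ replicate 5 the difference at 30 months was 5.95 (adjusted p = 1.1e-05), and without 10m NMJ replicate 8 that at 10 months was 6.20 (adjusted p = 5.4e-05). Leaving out 10m xNMJ replicate 1, which holds 2 of the 3 counts, gave 7.45 at 10 months.

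Of the 8 tested members, Gdnf, Sirpa and Igf1 rose at the NMJ at 10 months (3 of 8) and none fell. Over all tested genes, 6.50% rose and 5.05% fell. At 30 months Gdnf and Igf1 rose (2 of 8) and Bdnf fell (1 of 8), where 5% of all genes rose and 4.25% fell. The groups did not overlap for Gdnf and Sirpa at 10 months and for Gdnf and Igf1 at 30 months, always with NMJ above xNMJ, as for 2.22% and 1.96% of all genes. The groups did not overlap with NMJ below xNMJ for 0 of 8 members at either age, and for 1.19% and 0.5% of all genes. The median log2 fold change of the 8 members was -0.28 at 10 months and 0.34 at 30 months, and that of all tested genes was 0 and -0.01.

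**Figure D1:**
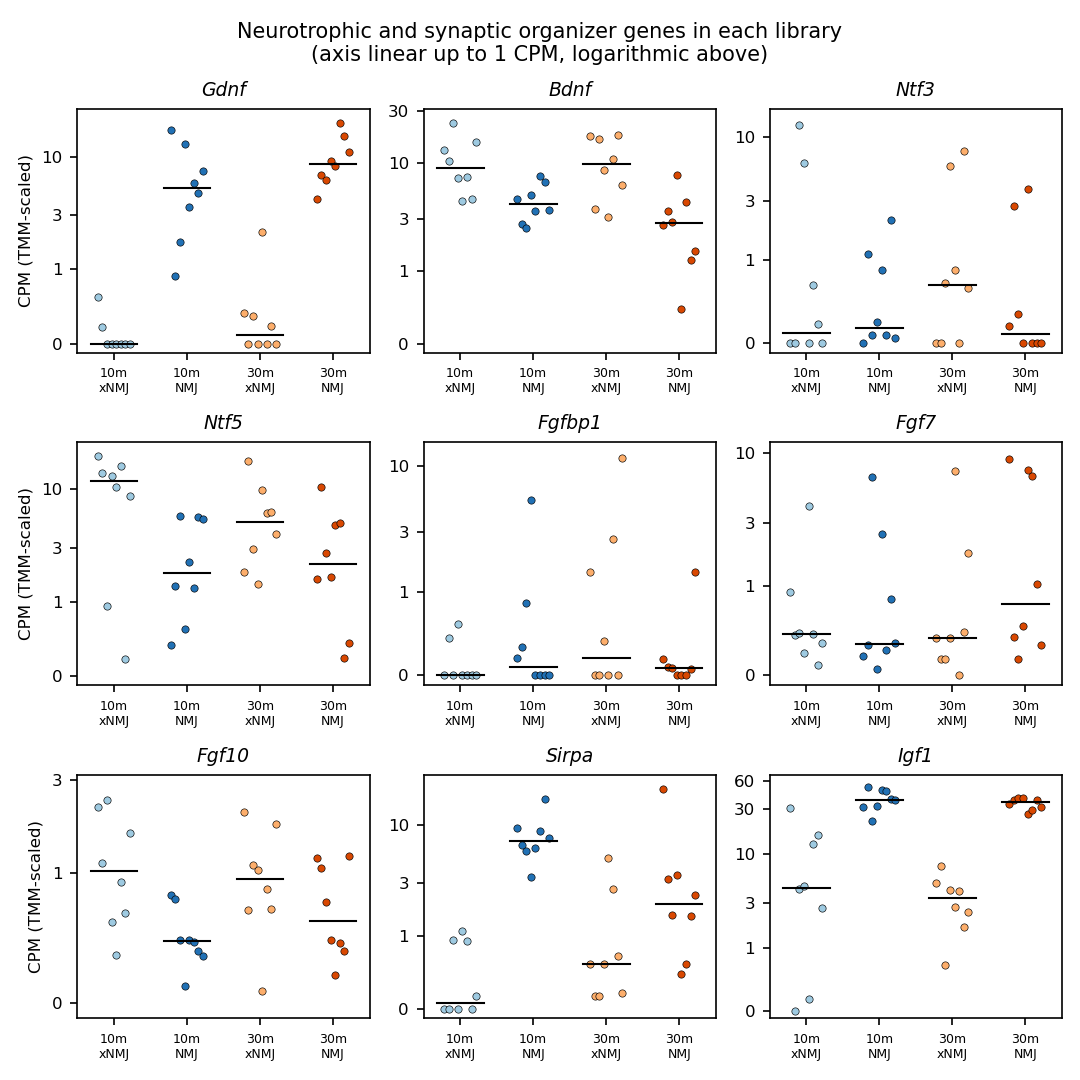
CPM, scaled by TMM (trimmed mean of M values) factors, of the 9 genes in each of the 32 libraries; every point is a library, and each bar is the median of its group of 8. Gdnf separates NMJ from xNMJ at both ages, Sirpa at 10 months and Igf1 at 30 months, while Fgfbp1, Fgf7 and Ntf3 rest on a few high libraries.

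The 3 neurotrophins did not follow Gdnf. Bdnf, the ligand of TrkB (chr2:109674700-109727007, plus strand), had 4.39, 8.85 and 23.2 CPM (lowest, median and highest) in 10m xNMJ libraries and 2.51, 4.15 and 7.59 CPM in 10m NMJ libraries. All 8 NMJ values lay under the xNMJ median, but the ranges overlapped. At 30 months it had 3.19, 9.62 and 17.8 CPM in xNMJ and 0.483, 2.77 and 7.66 CPM in NMJ libraries, of which 5 lay under every xNMJ library. Bdnf fell at the NMJ by 1.78 on the log2 scale at 30 months (SE 0.47, adjusted p = 0.011, edgeR). At 10 months the log2 fold change was -1.22 ± 0.46 (adjusted p = 0.087). The call at 30 months was lost with library totals in place of TMM factors (-1.08, adjusted p = 0.096). It was also lost in limma on log2(TPM + 1), which changes the unit and the model as well (-0.72, adjusted p = 0.073). The libraries do not mark strand, and 896 exon bases of Bdnf are shared with the antisense gene Gm45346, so that their reads cannot be told apart.

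TMM and library totals differ here because the NMJ libraries had mean TMM factors of 1.22 and 1.24 and the xNMJ libraries 0.829 and 0.805. Scaling to library totals moves the median of all genes up by 0.55 at 10 months and 0.63 at 30 months on the log2 scale. Of the genes past the threshold, 92.7% were then higher at the NMJ at 10 months and 97.3% at 30 months, against 909 of 1615 and 700 of 1295 with TMM. Fold changes are therefore given relative to the bulk of the genes.

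Ntf5, which encodes NT-4, another ligand of TrkB (chr7:45413695-45417179, plus strand), had 0.231, 11.8 and 19.6 CPM in 10m xNMJ and 0.413, 1.80 and 5.80 CPM in 10m NMJ libraries. Every NMJ value was under the xNMJ median, while xNMJ replicate 3 lay within the NMJ range and replicate 7 under it. The log2 fold change was -1.85 ± 0.72 (adjusted p = 0.098, edgeR; adjusted p = 0.049 in DESeq2; adjusted p = 0.047 in edgeR without 10m xNMJ replicate 7, which had 2 counts). At 30 months Ntf5 had medians of 5.07 CPM (xNMJ) and 2.17 CPM (NMJ), with a log2 fold change of -0.91 ± 0.71 (adjusted p = 0.52). Ntf3, the ligand of TrkC (chr6:126101412-126166910, minus strand), was near the floor in most libraries. In xNMJ libraries its medians were 0.115 CPM (10m) and 0.699 CPM (30m), in NMJ libraries 0.174 and 0.0996 CPM, and single libraries reached 12.5, 7.69, 2.11 and 3.76 CPM in these groups. Its log2 fold changes between regions were -2.05 ± 1.33 at 10 months (adjusted p = 0.38) and -1.13 ± 1.30 at 30 months (adjusted p = 0.69). The 95% interval at 10 months was -4.75 to 0.64, and with a replicate block the value was -0.18 (adjusted p = 0.97, edgeR). Single libraries moved both values, to -0.85 at 10 months without 10m xNMJ replicate 3 and to -2.75 without 10m NMJ replicate 7, and at 30 months to -0.37 without 30m xNMJ replicate 7 and to -2.06 without 30m NMJ replicate 5.

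Sirpa, whose product is cleaved from the muscle surface and binds CD47 on nerve terminals, was near the floor away from the synapse at 10 months. The gene lies at chr2:129592835-129632228 on the plus strand. It had 0, 0.0891 and 1.10 CPM in 10m xNMJ libraries and 3.39, 7.16 and 17.2 CPM in 10m NMJ libraries, with no overlap. It rose at the NMJ by 4.37 ± 0.93 (log2, adjusted p = 0.0013, edgeR), and by 4.38 without 10m NMJ replicate 8 (adjusted p = 0.0020). At 30 months the regions overlapped. The xNMJ libraries had 0.178, 0.618 and 5.05 CPM, the highest again being replicate 5, and the NMJ libraries 0.483, 1.94 and 21.2 CPM. The log2 fold change was 1.71 ± 0.81 (adjusted p = 0.22). Leaving out 30m xNMJ replicate 5 gave 2.58 (adjusted p = 0.048), and leaving out 30m NMJ replicate 1, the library at 21.2 CPM, gave 0.53 (adjusted p = 0.76). For Sirpa the interaction of age and region was -2.66 ± 1.17 (95% interval -5.04 to -0.28, adjusted p = 0.91, edgeR), and it was -3.83 without 30m NMJ replicate 1 and -1.79 without 30m xNMJ replicate 5.

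Igf1 (chr10:87858265-87937042, plus strand) was the most abundant member at the NMJ in TPM. In 10m libraries it had 0, 4.42 and 30.8 CPM in xNMJ and 22.8, 38.2 and 52.1 CPM in NMJ, so that only xNMJ replicate 1 reached into the NMJ range. In 30m libraries it had 0.729, 3.41 and 7.46 CPM in xNMJ and 26.9, 35.9 and 39.7 CPM in NMJ, with no overlap. Igf1 rose at the NMJ by 2.14 ± 0.56 at 10 months (adjusted p = 0.0084, edgeR) and by 3.29 ± 0.59 at 30 months (adjusted p = 0.00025). The difference at 10 months was 2.73 without 10m xNMJ replicate 1 and 2.14 without 10m NMJ replicate 8 (adjusted p = 0.012). The 30m NMJ libraries were at 34.6 ± 4.78 CPM (mean ± SD, n = 8), and the 10m xNMJ libraries, at 8.91 ± 10.5 CPM, had an SD above their mean.

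The FGF members gave little signal. Fgf10 (chr13:118669791-118792115, plus strand) had 1 to 12 counts in every library. Its medians were 1.02 CPM (10m xNMJ) against 0.475 CPM (10m NMJ), and 0.953 CPM (30m xNMJ) against 0.630 CPM (30m NMJ). Its log2 fold change between regions was -1.30 ± 0.54 at 10 months (adjusted p = 0.12, edgeR) and -0.52 ± 0.53 at 30 months (adjusted p = 0.65), and the sign of the second turned with library totals (0.13) and in limma (0.02). Fgf10 shares 123 exon bases with the antisense gene Gm16263. Fgf7 (chr2:126034658-126091185, plus strand) had medians of 0.455, 0.348, 0.412 and 0.795 CPM in the same order, while its highest libraries reached 4.03, 6.67, 7.35 and 9.06 CPM. Its log2 fold change was 0.67 ± 0.99 at 10 months (adjusted p = 0.74) and 1.20 ± 0.97 at 30 months (adjusted p = 0.54). Each of the 4 groups held such high libraries. Leaving out 10m NMJ replicate 3 turned the sign at 10 months (-0.41), and leaving out 30m xNMJ replicate 5 gave 2.68 at 30 months (adjusted p = 0.095). Fgfbp1 (chr5:43978858-43981779, minus strand) was at 0 counts in most libraries. In the same order of groups it was at or under 3 counts in 7, 6, 5 and 7 of 8 libraries, yet reached 86 counts (5.40 CPM) in 10m NMJ replicate 4, 52 counts (11.6 CPM) in 30m xNMJ replicate 8 and 13 counts (1.44 CPM) in 30m NMJ replicate 8. In edgeR without the filter, over 24167 genes, its log2 fold change was 2.54 at 10 months (adjusted p = 0.33) and -2.99 at 30 months (adjusted p = 0.23).

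**Figure D2:**
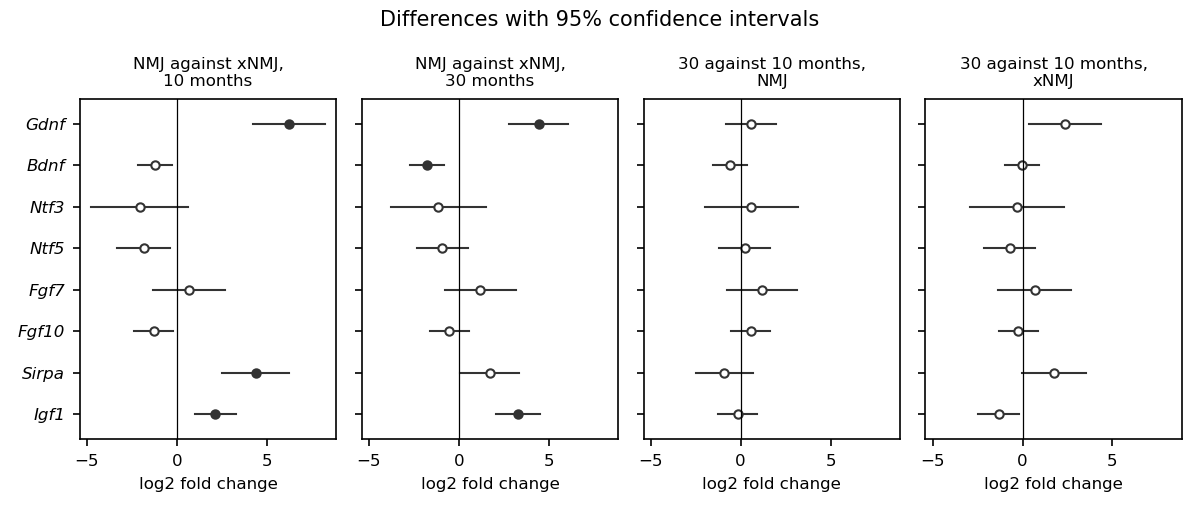
Log2 fold changes of the 8 tested genes with 95% confidence intervals in 4 comparisons (edgeR), drawn as filled points where the adjusted p was under 0.05 and as open points elsewhere. Filled points stand for Gdnf, Sirpa and Igf1 at 10 months and for Gdnf, Bdnf and Igf1 at 30 months, and the comparisons of age hold open points.

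Between genes, levels were compared as TPM, which corrects for transcript length. In the 10m NMJ libraries the mean TPM was 13.2 ± 4.62 (SD, n = 8) for Igf1, 3.18 ± 1.57 for Sirpa, 2.55 ± 2.06 for Gdnf, 2.09 ± 1.75 for Ntf5 and 1.66 ± 0.723 for Bdnf. The lowest Igf1 value, 6.72 TPM, was above the highest values of Gdnf (6.54 TPM) and Sirpa (6.51 TPM), and Sirpa, Gdnf, Ntf5 and Bdnf overlapped in their spread. Fgf7 (1.01), Fgfbp1 (0.943), Ntf3 (0.587) and Fgf10 (0.173) were lower in mean TPM. In the 10m xNMJ libraries the order was another one. Ntf5 came first in mean TPM (5.67 ± 4.08), then Bdnf (2.84 ± 1.73) and Igf1 (1.94 ± 2.30), whose ranges overlapped, and Gdnf came last (0.0323 ± 0.0691). At 30 months Igf1 (17.3 ± 4.60 TPM) and Gdnf (4.20 ± 2.11 TPM) led in the NMJ libraries, and every Igf1 value there was above every value of the other members. In the 30m xNMJ libraries Ntf5 (3.14 ± 2.33 TPM) and Bdnf (2.78 ± 1.68 TPM) led.

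**Figure D3:**
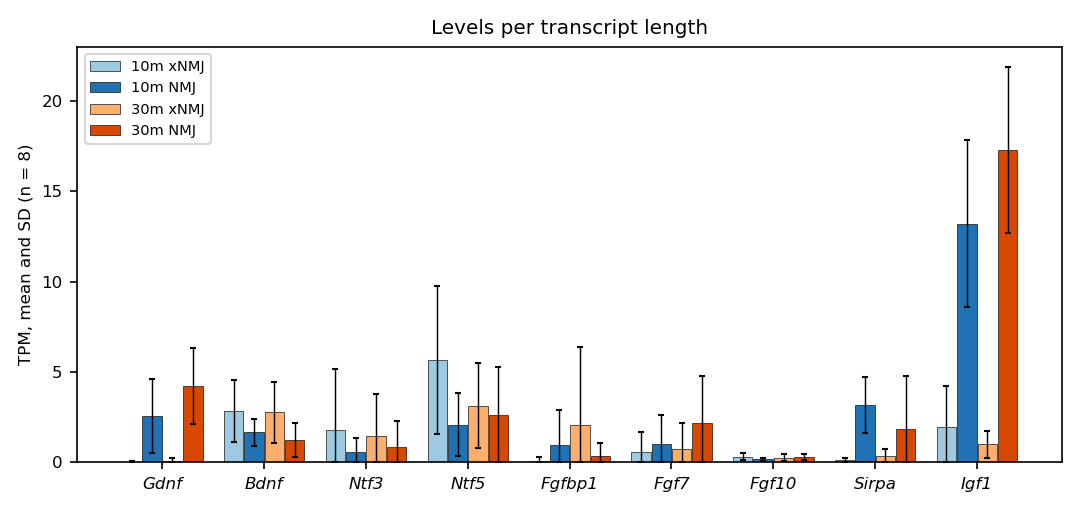
Mean TPM with SD (n = 8 libraries) of the 9 genes in the 4 groups. Igf1 stands highest in both NMJ groups, at 13.2 and 17.3 TPM, and Ntf5 and Bdnf in both xNMJ groups.

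The comparison of 30 with 10 months asks whether these transcripts differ in old muscle. None of the 8 tested members passed the threshold in NMJ or in xNMJ libraries, and 0 of 8 (NMJ) and 2 of 8 (xNMJ) had an unadjusted p under 0.05, the latter beside 1322 of all 13990 genes. Over all genes, 0% were called in either direction in NMJ libraries (edgeR; 372 genes at an unadjusted p under 0.05 and 1 gene called in DESeq2). In xNMJ libraries 0.0357% rose and 0.00715% fell. In NMJ libraries the log2 fold changes (30m over 10m, with 95% intervals) were 0.57 (-0.83 to 1.97) for Gdnf, -0.17 (-1.24 to 0.91) for Igf1 and -0.58 (-1.51 to 0.36) for Bdnf. For Sirpa the value was -0.92 (-2.50 to 0.66), and 6 of 8 30m NMJ libraries lay under the lowest 10m NMJ library. Without 30m NMJ replicate 1 the value for Sirpa was -2.10, with an adjusted p of 1 in edgeR. In xNMJ libraries, Igf1 had -1.32 (-2.47 to -0.17, adjusted p = 0.44) and Gdnf 2.35 (0.36 to 4.35, adjusted p = 0.43). The value for Gdnf rested on replicate 5 of 30m xNMJ, without which it was 0.85, and on 10m xNMJ replicate 1, without which it was 3.58. That for Igf1 was -0.72 without 10m xNMJ replicate 1. The interaction of age and region called 0 of 8 members (1 at an unadjusted p under 0.05) and 0% of all genes in edgeR, with 708 genes at an unadjusted p under 0.05. For Igf1 it was 1.15 ± 0.77 and for Gdnf -1.78 ± 1.16, and the latter turned to 0.57 in limma on log2(TPM + 1). Without 30m xNMJ replicate 5 the interaction for Gdnf was -0.28, and without 10m xNMJ replicate 1 it was -3.01 for Gdnf and 0.56 for Igf1.

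Receptors and partners of these factors were taken as a list of 19 genes, of which 16 were tested. Their values are RNA of the captured regions, and the cells that held this RNA were not told apart. Receptor protein on the nerve was not measured here. At 10 months 5 rose at the NMJ and 0 fell, and at 30 months 4 rose and 0 fell. Of all genes, 6.50% rose and 5.05% fell at 10 months, and 5% rose and 4.25% fell at 30 months. The list's median log2 fold change was 0.76 and 0.84, where all genes had 0 and -0.01. Gfra1, Gfra2, Ncam1 and Sdc2 rose at both ages and Sort1 at 10 months. Gfra1, the co-receptor that binds GDNF, had 0, 0.0891 and 0.473 CPM in 10m xNMJ and 3.05, 5.83 and 14.5 CPM in 10m NMJ libraries. In 30m libraries it had 0, 0 and 1.75 CPM in xNMJ and 2.20, 8.42 and 17.1 CPM in NMJ. Like Gdnf, it did not overlap between regions at either age, and it rose by 5.70 ± 0.92 at 10 months (adjusted p = 4e-05, edgeR) and by 4.55 ± 0.84 at 30 months (adjusted p = 0.00033). Ncam1, an adhesion molecule that can serve GDNF in place of RET, was the most abundant gene of the list in NMJ libraries, at 111 ± 32.9 CPM at 10 months and 103 ± 28.6 CPM at 30 months. It rose by 4.44 ± 0.43 (adjusted p = 5.1e-09) and by 3.61 ± 0.41 (adjusted p = 2e-07).

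Ret, the receptor kinase for GDNF, was low. Its medians were 0 and 0.979 CPM in 10m xNMJ and NMJ libraries and 0 and 0.0400 CPM in the 30m ones, and 6 of 8 30m NMJ libraries had at most 3 counts. The log2 fold change was 2.96 ± 1.12 at 10 months (adjusted p = 0.085, edgeR; past the threshold with library totals, 3.44) and 1.05 ± 1.12 at 30 months (adjusted p = 0.66). The difference between 30m and 10m NMJ libraries was -2.20 ± 1.04, with an adjusted p of 1. Gfra2, the co-receptor of neurturin, rose by 2.09 ± 0.58 at 10 months (adjusted p = 0.013) and by 1.83 ± 0.57 at 30 months (adjusted p = 0.036). The second call was lost without 30m xNMJ replicate 5 (1.66, adjusted p = 0.059) and in a fit of the compared groups alone (adjusted p = 0.078).

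Of the neurotrophin receptors, Ntrk2 (TrkB) had log2 fold changes of 0.90 ± 0.59 at 10 months and 1.31 ± 0.59 at 30 months (adjusted p = 0.38 and 0.19, edgeR). Ntrk3 (TrkC), at 36.8 to 52.0 CPM in the means of the 4 groups, had -0.20 ± 0.32 and 0.45 ± 0.32 (adjusted p = 0.76 and 0.46). Sort1, which encodes sortilin and binds the precursors of neurotrophins, rose by 1.18 ± 0.35 at 10 months (adjusted p = 0.019), and at 30 months its value was 0.90 ± 0.34 (adjusted p = 0.10). Ngfr, the p75 receptor, had 0.18 ± 0.80 and 1.58 ± 0.80 (adjusted p = 0.93 and 0.26).

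Fgfr2, the receptor of FGF7 and FGF10, had -2.34 ± 1.21 at 10 months and -1.58 ± 1.18 at 30 months (adjusted p = 0.25 and 0.50, edgeR). Fgfr1 had 0.40 ± 0.28 and 0.23 ± 0.28 (adjusted p = 0.43 and 0.71), and Fgfr3 0.87 ± 0.95 and 0.28 ± 0.94 (adjusted p = 0.64 and 0.91). Sdc2, a heparan sulfate proteoglycan that can hold FGFs at the cell surface, rose by 3.21 ± 0.55 at 10 months (adjusted p = 1e-04), with no overlap, and by 2.04 ± 0.53 at 30 months (adjusted p = 0.0091), or 2.75 without 30m xNMJ replicate 5. Cd47, the partner of SIRPα, had 0.50 ± 0.30 and 0.60 ± 0.30 (adjusted p = 0.33 and 0.26). Igf1r, the receptor of IGF-1, had 0.64 ± 0.39 and 0.78 ± 0.40 (adjusted p = 0.35 and 0.26), and Insr, the insulin receptor, -0.32 ± 0.36 and -0.73 ± 0.36 (adjusted p = 0.65 and 0.24). Igf2r, which binds IGF-2, had 0.02 ± 0.23 and 0.16 ± 0.23 (adjusted p = 0.98 and 0.77). With library totals in place of TMM factors, Fgfr1 (0.97 and 0.85), Cd47 (1.07 and 1.27) and Igf1r (1.20 and 1.40) passed the threshold at both ages, and Ntrk2, Ntrk3, Sort1 and Igf2r did so at 30 months. In both limma fits Ntrk2 and Fgfr1 passed at both ages, Ret at 10 months, and Ngfr, Sort1 and Cd47 at 30 months. No gene of the list passed in the comparisons of age in edgeR.

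Other nerve- and muscle-acting ligands were taken as a list of 31 genes, of which 23 were tested. At 10 months 6 rose at the NMJ (Cntf, Ptn, Mdk, Fgf1, Fgf6 and Fgf11) and Vegfa fell, and at 30 months 5 rose (Ptn, Mdk, Fgf1, Fgf6 and Tgfb2). Of all genes, 6.50% rose and 5.05% fell at 10 months, and 5% rose and 4.25% fell at 30 months. The list's median log2 fold change was 0.09 and 0.07, where all genes had 0 and -0.01. Ptn, which encodes the heparin-binding factor pleiotrophin, had 0, 0.274 and 0.891 CPM in 10m xNMJ and 18.3, 27.3 and 40.1 CPM in 10m NMJ libraries. It rose by 6.23 ± 0.66 (adjusted p = 3.5e-08, edgeR), the same log2 value as Gdnf, and by 4.93 ± 0.60 at 30 months (adjusted p = 7.6e-07), or 5.82 without 30m xNMJ replicate 5. Mdk, for its relative midkine, rose by 3.87 ± 0.88 and by 4.20 ± 0.91 (adjusted p = 0.0027 and 0.0019). Its call at 30 months was lost with a replicate block (4.48, adjusted p = 0.068).

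Among FGFs, the muscle FGFs Fgf1 and Fgf6 were far above Fgf7 and Fgf10 in mean TPM, at 46.3 and 30.4 in 10m NMJ libraries. Fgf1 rose by 1.85 ± 0.41 and by 2.41 ± 0.42 (adjusted p = 0.0022 and 0.00019, edgeR). Fgf6 rose by 4.12 ± 0.46 and by 2.81 ± 0.43 (adjusted p = 1e-07 and 3.1e-05), with no overlap at either age. Fgf11, an FGF that stays in the cell, rose by 2.13 ± 0.68 at 10 months (adjusted p = 0.034), and at 30 months its value was 0.49 ± 0.65 (adjusted p = 0.74). The call at 10 months was lost with insert size as a covariate (1.79, adjusted p = 0.16) and in a fit of the compared groups alone (adjusted p = 0.059). Cntf, a factor made by Schwann cells, rose by 3.91 ± 1.25 at 10 months (adjusted p = 0.034), and had 3.34 ± 1.20 at 30 months (adjusted p = 0.079). It passed at 30 months with library totals, in limma, with insert size as a covariate and with a replicate block (adjusted p = 0.013). It also passed without 30m xNMJ replicate 5 (adjusted p = 0.0031), whose 27 counts were all that the 30m xNMJ libraries held of Cntf. Tgfb2 had 0.86 ± 0.32 at 10 months (adjusted p = 0.079, but 0.035 in DESeq2 and past the threshold with library totals and in limma) and rose by 1.07 ± 0.32 at 30 months (adjusted p = 0.027). Vegfa fell at 10 months by 0.79 on the log2 scale (SE 0.23, adjusted p = 0.021), a call that library totals did not give (-0.22, adjusted p = 0.52) and that insert size as a covariate ended (-0.72, adjusted p = 0.096).

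IGF binding proteins hold IGF-1 in the matrix and tune its access to the receptor. Of 7, 5 were tested. Igfbp4 rose by 1.17 ± 0.20 at 10 months and by 1.15 ± 0.20 at 30 months (adjusted p = 7.8e-05 and 0.00014, edgeR). Igfbp6 rose by 2.79 ± 0.69 and by 2.81 ± 0.69 (adjusted p = 0.0053 and 0.0059), from 8.53 to 58.4 CPM and from 6.01 to 43.0 CPM in the group means. Igfbp5, the most abundant of the list in CPM, fell at 10 months by 1.06 on the log2 scale (SE 0.26, adjusted p = 0.0046), and at 30 months its value was -0.39 ± 0.26 (adjusted p = 0.41). With library totals the fall at 10 months was -0.51 (adjusted p = 0.13). Igfbp7, first in mean TPM, had 0.79 ± 0.38 and 0.67 ± 0.38 (adjusted p = 0.20 and 0.33), and it passed at both ages with library totals (1.36 and 1.32) and in both limma fits.

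**Figure D4:**
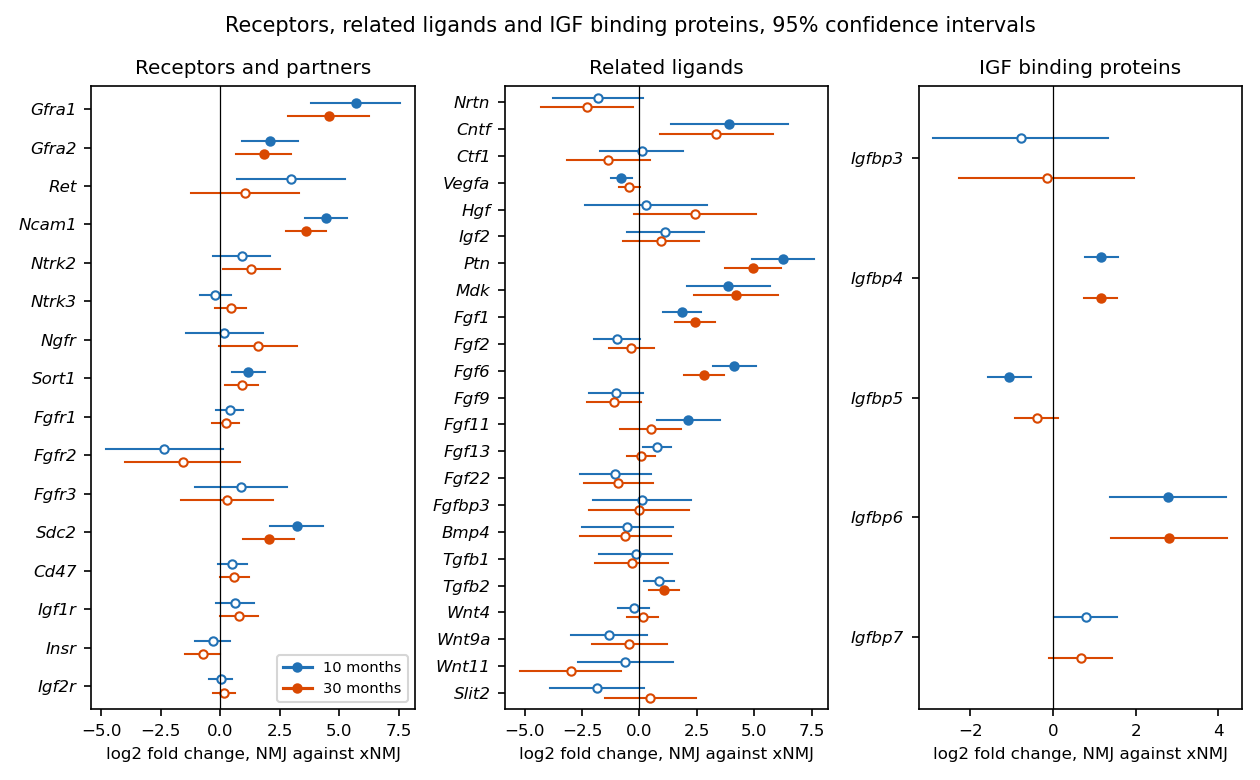
Log2 fold changes, NMJ against xNMJ, with 95% confidence intervals (edgeR) for the tested receptors, related ligands and IGF binding proteins at 10 months (blue) and 30 months (orange), filled where the adjusted p was under 0.05. Gfra1, Gfra2, Ncam1 and Sdc2 are filled at both ages among receptors, and Ptn, Mdk, Fgf1 and Fgf6 among ligands.

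Genes known to respond to FGF and neurotrophin signaling were taken as a list of 11, all tested. At 10 months 7 rose at the NMJ and 1 fell, and at 30 months 6 rose and 1 fell. Of all genes, 6.50% rose and 5.05% fell at 10 months, and 5% rose and 4.25% fell at 30 months. The list's median log2 fold change was 2.42 and 2.26, where all genes had 0 and -0.01. The region label was checked on 1 gene of this list, Etv5, among others. Signaling itself was not measured. Etv5, an ETS factor needed for synaptic transcription, rose by 8.95 ± 0.97 and by 4.38 ± 0.75 (adjusted p = 5.3e-08 and 0.00012, edgeR). Dusp6, a phosphatase that acts on ERK, rose by 6.36 ± 0.74 and by 4.84 ± 0.67 (adjusted p = 1.8e-07 and 5.8e-06). Spry1, Etv1, Etv4 and Arc also rose at both ages, and Spry4 rose at 10 months (1.15 ± 0.39, adjusted p = 0.046, and adjusted p = 0.11 with insert size as a covariate or 0.086 in a fit of the compared groups alone). Spry2, another feedback inhibitor and the most abundant gene of the list, went the other way, from 3227 to 837.5 CPM at 10 months (-1.95 ± 0.46, adjusted p = 0.0034) and from 3823 to 1047 CPM at 30 months (-1.87 ± 0.46, adjusted p = 0.0056). With insert size as a covariate the call on Spry2 at 10 months was lost (-1.49, adjusted p = 0.17), and with library totals that at 30 months (-1.17, adjusted p = 0.052). At 30 months the values without 30m xNMJ replicate 5 were 6.31 for Etv5 and 6.61 for Dusp6. Etv5 was the 1 gene of the list called with age, in xNMJ libraries, and the call was lost without 30m xNMJ replicate 5 (2.67, adjusted p = 0.10).

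Of the genes that denervated muscle is known to turn on, 7 of 9 were tested. Chrna1, the α-subunit of the acetylcholine receptor and the most abundant of them, rose at the NMJ by 4.47 ± 0.43 and by 3.94 ± 0.42 (adjusted p = 4.7e-09 and 7.6e-08, edgeR), and by 4.87 at 30 months without 30m xNMJ replicate 5. Myog, a muscle transcription factor, rose by 3.02 ± 0.99 and by 3.33 ± 0.97 (adjusted p = 0.042 and 0.023, and adjusted p = 0.080 at 10 months with insert size as a covariate or 0.073 in a fit of the compared groups alone). Runx1 rose at 10 months by 2.29 ± 0.69 (adjusted p = 0.023, or 0.055 with a replicate block). Myh8 fell at 10 months by 0.77 on the log2 scale (adjusted p = 0.0037), a call that library totals did not give (-0.22, adjusted p = 0.42). None was called with age in edgeR, while DESeq2 called Runx1 in xNMJ libraries (2.62, adjusted p = 0.014, against 0.19 in edgeR). The log2 fold change with age was above 0 for 7 of 7 in NMJ and for 6 of 7 in xNMJ libraries. The list's median with age was 0.57 in NMJ and 0.66 in xNMJ libraries, where all genes had 0.02 and 0.04. The list as a set was not tested.

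Several markers of other cells also rose at the NMJ, as did Gdnf and Igf1 at both ages and Sirpa at 10 months. All 7 tested Schwann cell markers of 8 rose at the NMJ at both ages. Their summed TPM ran from 184.9 to 256.6 in 10m NMJ and from 113.1 to 234.7 in 30m NMJ libraries, against 2.76 to 15.7 in 10m xNMJ and 2.19 to 23.3 in 30m xNMJ libraries, with Pmp22 the most abundant. Of 6 markers of fibro-adipogenic progenitors, 4 rose at both ages (Pdgfra, Dcn, Lum and Col1a2), from a mean sum of 132.2 to 853.9 TPM at 10 months and from 138.0 to 884.2 TPM at 30 months, with Dcn the most abundant. Of 6 macrophage markers, 4 rose at 10 months (C1qa, C1qb, Cd68 and Mrc1) and 3 at 30 months (Adgre1, C1qb and Mrc1), from 6.48 to 109.7 and from 7.97 to 74.0 TPM, with C1qb the most abundant. Of 5 mast cell markers 4 rose at both ages (Cpa3, Mcpt4, Tpsb2 and Cma1), from 0.666 to 50.5 and from 0.465 to 66.6 TPM, with Cma1 the most abundant. The call on Tpsb2 at 10 months was lost in edgeR with a replicate block (4.94, adjusted p = 0.1). Cpa3 was at 0 counts in all 16 xNMJ libraries, and Adgre1, Tpsb2 and Cma1 in all 8 of the 30m xNMJ ones.

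Other lists moved less. None of 5 endothelial markers rose in edgeR (Emcn passed at 30 months in limma, 1.09 with a pseudocount of 1), and Cdh5, the most abundant, fell at 30 months (-1.29 ± 0.34, adjusted p = 0.0094, edgeR). Of 4 pericyte markers Cspg4 rose at both ages, a call lost at 30 months without 30m xNMJ replicate 5 (1.61, adjusted p = 0.054) and in a fit of the compared groups alone (adjusted p = 0.068), while Rgs5, the most abundant, fell at 30 months (-0.83 ± 0.26, adjusted p = 0.034, and adjusted p = 0.066 in that fit). Of 5 markers of muscle stem cells, 4 were tested and Sdc4 rose at both ages. Of 6 fiber genes 4 fell at both ages (Acta1, Ckm, Myh1 and Tnnt3), with Tnnt3, the most abundant, at -0.92 ± 0.17 and -1.01 ± 0.17 (adjusted p = 0.00022 and 9e-05). With library totals, the values of Tnnt3 were -0.37 and -0.38, of Cdh5 at 30 months -0.67 and of Rgs5 at 30 months -0.24, and the calls on these and on Acta1, Ckm and Myh1 were lost. The part of these cells in the rises of Gdnf, Sirpa and Igf1 was not tested.

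**Figure D5:**
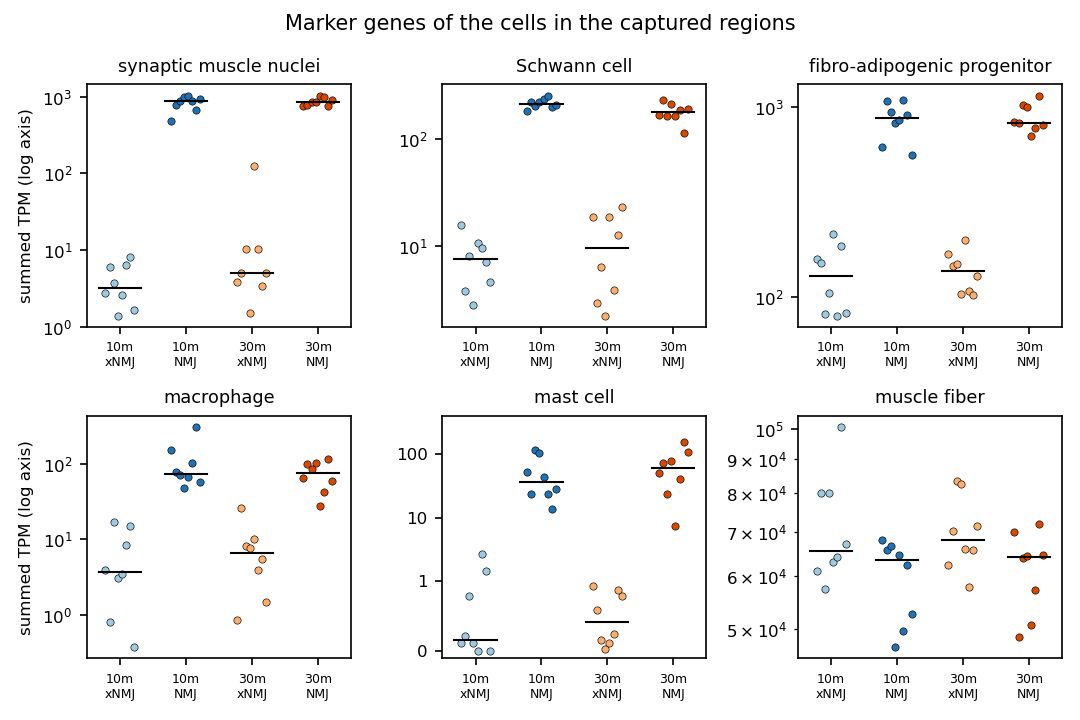
Summed TPM of the marker genes of 6 cell types or nuclei in each of the 32 libraries, by group, on log axes (mast cell linear up to 1), with the median as a bar. Sums for synaptic nuclei, Schwann cells, fibro-adipogenic progenitors, macrophages and mast cells are higher in every NMJ library than in every xNMJ library, and 30m xNMJ replicate 5 stands out at 123.2 TPM for synaptic nuclei.

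For each member with a mean of at least 2 CPM, the 3 genes with the most similar pattern across the 32 libraries (Pearson's r of log2 CPM) were sought among tested genes averaging 5 CPM or more. The libraries share group, depth and tissue, and r is a description. For Gdnf they were Cited1 (r = 0.920), Chrne (0.919) and Mt3 (0.917), and for Igf1 they included Kank4 (0.867) and the Schwann cell marker Sox10 (0.843). For Sirpa they were Bcar3 (0.803), Ptn (0.789) and Mal (0.776). With the group means removed, r fell to 0.466 to 0.482 for the genes like Gdnf, to 0.449 and 0.560 for those named for Igf1 and to 0.363 to 0.501 for those like Sirpa. For Bdnf they were Ap4m1 (0.769), Gm12940 (0.755) and Zfp266 (0.752), and for Ntf5 the fast myosin Myh1 (0.655), Ndufa9 (0.645) and Uqcrc2 (0.624), the last pair being genes of the mitochondrial respiratory chain. With group means removed, r was 0.556 to 0.610 for the genes like Bdnf and 0.515 to 0.560 for those like Ntf5.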

How the data were processed

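RNA of captured regions was made into cDNA with a SMART-Seq v4 kit and read single-end without strand, per the labels. The authors trimmed reads with Cutadapt 1.9.1 and assigned them with kallisto 0.43.1 to protein-coding Ensembl transcripts of GRCm38. Reads shared by several transcripts were split between them by the authors, whose deposited counts per gene are integers without normalization. The authors also deposited TPM, which adjusts for transcript length and sequencing depth.

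Counts were fitted with edgeR 4.0.16 (R 4.3.3): TMM factors, quasi-likelihood F test, the 4 groups in 1 fit, genes with at least 1 CPM in at least 8 libraries, two-sided p values adjusted by Benjamini-Hochberg over all 13990 genes, threshold 0.05. Alternatives used DESeq2 1.42.0, limma 3.58.1 on log2(TPM + 1) and log2(TPM + 0.1), other scaling and filters, insert size, a replicate block and leaving out each library. Fold changes in limma are on the log2(TPM + pseudocount) scale, where the pseudocount shrinks the TPM ratios of low genes. The fit was tested on simulated data. No library pair of a group was a duplicate: over 112 pairs the chi-squared per gene was at least 24.9. Floors cover counting error only, since the reads carry no molecular identifiers.

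The members, gene lists and tests were chosen with earlier results of these data known. Named genes were all 9 members, their receptors, genes past the threshold in the lists of receptors, ligands and IGF binding proteins, the most abundant gene and those past the threshold of each other list, and the 3 genes most like each member, of which 1 for Igf1 is not reported here. Positions came from GENCODE M21 and promoters from RefSeq. Figures were drawn with matplotlib. Protein sequences were not used here.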

Additional observations from a re-analysis of the deposited data

Results flagged for a closer look

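In 6 of 36 groups of 8 libraries (9 genes in 4 groups), 1 library stood far from the other 7 on the log scale, by Dixon's ratio. The cut is set to flag about 1 in 20 groups of normally spread values. Groups mostly at 0 counts, such as Gdnf in 10m xNMJ, are not spread so, and the 6 are therefore not set against that rate. Gdnf was at 0.622 CPM in 10m xNMJ replicate 1, which is 2 counts, and at 2.12 CPM (24 counts) in 30m xNMJ replicate 5, the library with synaptic RNA. The next highest values of Gdnf were 0.224 and 0.411 CPM. Fgfbp1 was at 5.40 CPM (86 counts) in 10m NMJ replicate 4, where the next library had 0.870 CPM, and at 1.44 CPM (13 counts) in 30m NMJ replicate 8, where the next had 0.199 CPM. Fgf7 was at 4.03 CPM (22 counts) in 10m xNMJ replicate 5, and the next library had 0.933 CPM. Sirpa was at 21.2 CPM (213 counts) in 30m NMJ replicate 1, and the next library had 3.52 CPM. That library sets the mean of Sirpa in 30m NMJ libraries, which was 4.31 ± 6.92 CPM (SD, n = 8) with a median of 1.94 CPM.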

How the results depend on the processing

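Gdnf and Igf1 at both ages and Sirpa at 10 months kept their direction and call in all alternatives run. The call on Bdnf at 30 months was lost with library totals (-1.08) and in limma with a pseudocount of 1 (-0.72) or 0.1 (-1.18). Calls were gained for Sirpa at 30 months with library totals (2.28, adjusted p = 0.046), in limma with 0.1 (1.74, adjusted p = 0.028) and without 30m xNMJ replicate 5 (2.58, adjusted p = 0.048 in edgeR), and for Ntf5 at 10 months in DESeq2 (-1.82, adjusted p = 0.049) and without 10m xNMJ replicate 7 (adjusted p = 0.047 in edgeR). Library totals were added after seeing the data. Why these calls moved was not tested. Among genes of the other lists, the falls lost with library totals were lost in limma too, except that of Tnnt3. Both limma fits further called Egr1, Fgf13, Adgre1 and Csf1r at 10 months, Chrng, C1qa, Csf1r and Ly6a at 30 months and Spred1 at both ages, all higher at the NMJ. DESeq2 called Spred1 (1.85, adjusted p = 0.031), Egr1 (1.7, 0.017) and Adgre1 (2.43, 0.044) at 10 months and Wnt11 at 30 months (-3.05, adjusted p = 0.022). For age in xNMJ libraries, besides Runx1, DESeq2 called Adgre1 (-5.59, adjusted p = 0.0013), Chrne (5.74, 0.022) and Mt3 (4.17, 0.0096), each at 0.12 in edgeR. Ntf3, Fgf7 and Fgfbp1 had low counts in most libraries and high counts in a few, and Fgf10 had low counts throughout. How far this limits their calls was not tested.

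Over all genes, 1615 passed between regions at 10 months and 2877, 2918 and 3014 with library totals and in limma with 1 and 0.1. At 30 months the counts were 1295 and 2767, 3561 and 3681. For age in NMJ libraries, 0 genes passed in edgeR (372 at an unadjusted p under 0.05), 1 in DESeq2 and 3 in limma with 1. For age in xNMJ libraries, 6 passed in edgeR, 84 in DESeq2, 0 in either limma fit, 2 with insert size, 0 with only the compared groups and 0 (without 10m xNMJ replicate 2) to 9 (without 30m xNMJ replicate 5) with a library left out. For the interaction, 0 passed in edgeR (708 at an unadjusted p under 0.05), 9 in DESeq2 and up to 1 with a library left out (10m xNMJ replicate 3). No member passed for age or the interaction in the fits that gave an adjusted p, which DESeq2 did not for the 8 members for age in NMJ libraries. The interaction could not be fitted with only the compared groups.

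Signs that turned were all of values not past the threshold. In limma with 1 and 0.1, the interaction for Gdnf was 0.57 and 0.57, age in NMJ for Igf1 0.41 and 0.44, age in xNMJ for Ntf3 0.06 and 0.42, and the region at 30 months for Fgf10 0.02 and 0.10 (0.13 with library totals). With 0.1, age in NMJ for Ntf3 was -0.22 and its interaction -0.64. With insert size, age in xNMJ was 0.02 for Bdnf and -0.31 for Fgf7, and the region at 10 months for Fgf7 -0.31. With single libraries left out, values ran from -0.17 to 0.24 for Bdnf (age in xNMJ), and for Ntf3 from -0.33 to 1.29 (age in NMJ), -1.08 to 0.89 (age in xNMJ) and -0.29 to 1.68 (interaction). They ran from -0.28 to 0.45 for Ntf5 (age in NMJ), and for Fgf7 from -0.41 to 1.73 (region at 10 months), -0.82 to 1.72 (age in xNMJ) and -0.53 to 2.01 (interaction). In the 250 bases before the start alone, 14 of 15 member promoters held an E-box and 0 an N-box, as did 66.2% and 12% of all.

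The replicate numbers of NMJ and xNMJ libraries were not taken as pairs, and whether they mark a shared mouse is not known. Same-numbered libraries deviated together with a mean r of 0.089 at 10 months (4 of 8 pairs over 0.1) and 0.081 at 30 months (1 of 8). That 1 pair was replicate 5 (r = 0.366), whose xNMJ library holds synaptic RNA. At either age 4 of 8 correlated best with their own number, a hint from the data. With the replicate block, 980 genes rose and 735 fell at 10 months, and 776 and 552 at 30 months. Of other named genes with a region call in edgeR, Fgf11 (adjusted p = 0.098), Spry4 (0.13), Runx1 (0.055) and Tpsb2 (0.10) at 10 months and Gfra2 (0.10), Mdk (0.068) and Rgs5 (0.057) at 30 months did not pass with the block. Calls gained at 10 months were Egr1 (1.74, adjusted p = 0.029), Adgre1 (3.66, 0.023) and Csf1r (2.03, 0.039). At 30 months they were Cntf (5.52, 0.013), C1qa (3.04, 0.037) and Myh8 (-0.57, 0.044). No member's call changed under the block, and the interaction turned sign for Ntf3 (-1.15). For age the block ties 10m to 30m libraries, which share no mouse, and tests nothing. It gave 0 genes in xNMJ, and Ntf3 at -0.19 (NMJ) and 0.86 (xNMJ).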
